A study of Mus musculus with 10 samples.

Results

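Fibroblasts were followed through the messenger RNA of 10 marker genes, chosen by symbol, in 10 mouse urothelial tumours. The genes were the quiescent markers Dpt, Pi16, Dcn and Cxcl12, the activated markers Fap, Postn and Thy1, and Lum, Pdgfra and Pdgfrb, which fibroblasts carry in both states. All 10 were found among the 23086 genes of the deposited table, and all 10 passed the filter on low values. The libraries were 5 from ATM-KO tumours and 5 from ATM-WT tumours of BBN963, a cell line from a mouse bladder carcinoma induced by the carcinogen BBN, grown in mice and taken at a size of 500 mm3. No drug treatment, strain, age or sex is given, nor the number of knockout clones, the lesion made in Atm, or the genotype of the host mice. Separate host animals are not stated, so the p-values cover no more than the spread between these samples.

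Fibroblasts build the collagen-rich matrix of connective tissue. In resting tissue they express secreted matrix proteins and the adventitial markers Dpt and Pi16, and in wounds and tumours signals such as TGF-beta and PDGF turn them into activated cells that deposit periostin and carry the surface protease FAP. A tumour grown from a cell line draws its fibroblasts from the host, but carcinoma cells of mesenchymal type can express several of the same genes. In a piece of whole tumour, fewer cells of a type and less RNA per cell cannot be told apart, nor can RNA of host fibroblasts and of tumour cells.

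Of the 10 genes, 8 fell in ATM-KO tumours, 0 rose and 2 (Pdgfrb and Thy1) were not called, in limma's test over 16517 genes with Benjamini-Hochberg adjustment at 0.05. The background was high, since 46.4% of all tested genes were called, 24.3% as lower and 22.1% as higher (4017 and 3649 genes). After quantile normalization of the libraries the split over all genes was 3319 lower and 4514 higher. For 6 of the 10 genes, all lower in ATM-KO, no value of one group reached into the other, as for 35.2% of tested genes (18.2% lower and 17% higher in ATM-KO). The 10 log2 fold changes, computed as the mean log2(value + 1) of ATM-KO minus that of ATM-WT, ran from -5.07 for Dpt to -0.07 for Thy1, with a median of -1.68, while the median of all tested genes was 0.00467. Called genes comprised 4 of 4 quiescent markers, 2 of 3 activated markers and 2 of the 3 genes common to both states. Here and below, wherever 0 genes of a list rose or fell by the adjusted test, 0 passed limma's unadjusted p under 0.05 in that direction too. Values below are normalized counts, which are not corrected for gene length, so levels are compared between groups and not between genes.

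**Figure D1:**
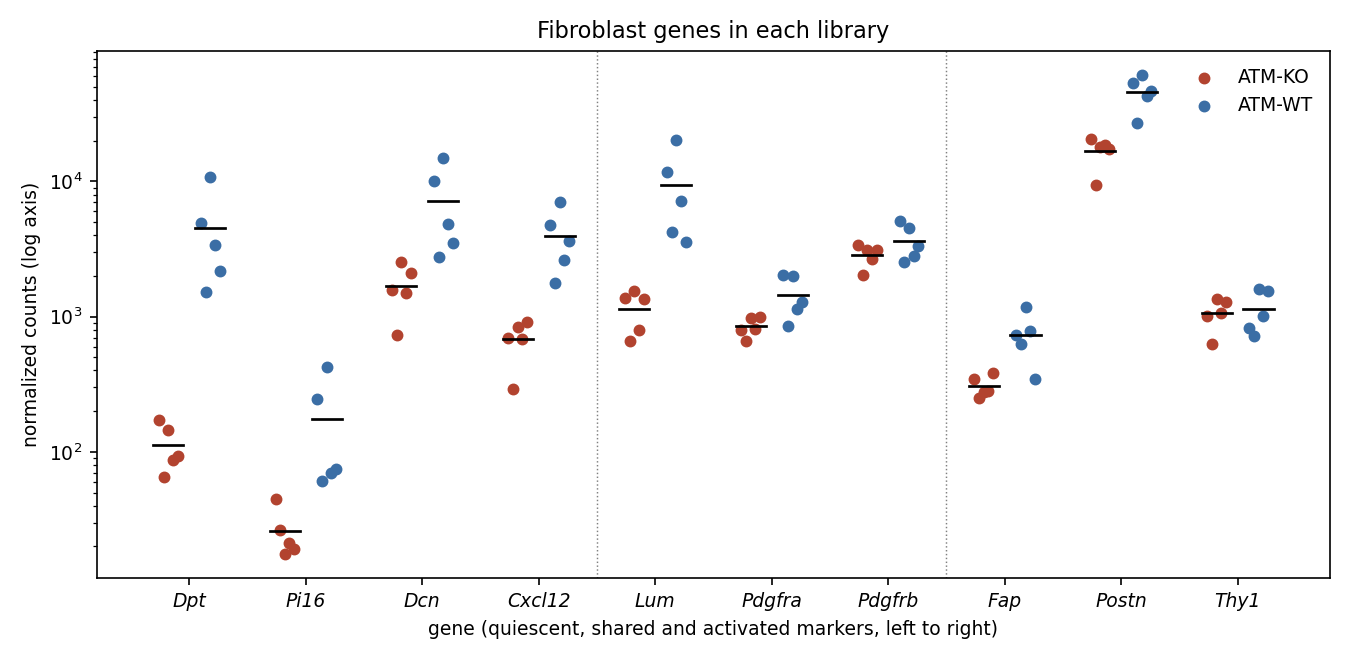
Normalized counts (log axis) of the 10 fibroblast genes, with one point per library, ATM-KO to the left of ATM-WT for each gene, and a bar at the mean of 5 libraries. Points of the groups are fully separate for Dpt, Pi16, Dcn, Cxcl12, Lum and Postn, and they mix for Thy1.

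Libraries differed in depth and sparseness. Their normalized counts summed to 20.2 to 22.3 M (M, mega). The spacing of low values gave rough depths of 21.1 to 28.3 M reads in ATM-KO and 8.81 to 25.3 M reads in ATM-WT, where A2 was the shallow library. In ATM-KO, 3602 genes were listed at 0 in A12 and 2403 to 2641 in the other libraries. In ATM-WT, 4824 were listed at 0 in A2, 4266 in A4 and 2225 to 2527 in the other libraries. Atm messenger RNA overlapped between the groups, at 312 to 659 normalized counts in ATM-KO and 311 to 768 in ATM-WT (log2 fold change -0.07 ± 0.26, limma adjusted p = 0.85), and so does not check the genotype labels. General epithelial markers, which are not specific to urothelium, were low in the knockout tumours. The 18 genes on that list summed to 3157 to 4882 normalized counts in ATM-KO and 113758 to 343886 in ATM-WT, and all 18 were called lower. None of the 18 was at 0 in every library of a group, and the part of this difference in the results below was not tested.

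Dermatopontin, the product of Dpt, binds decorin and collagen fibrils and marks fibroblasts of many resting tissues. Dpt stood at 173, 65.6, 146, 87.5 and 92.5 normalized counts in A11 to A15 of ATM-KO, against 4893, 1534, 10767, 3363 and 2191 in ATM-WT libraries A1 to A5. Every knockout value lay below every wild-type value, and the highest knockout library stood well under the lowest wild-type one. The ATM-KO mean was 113 ± 44.7, against 4549.6 ± 3702 in ATM-WT (SD, n = 5 each), or 2.48% of it. The log2 fold change, given ± SE throughout, was -5.07 ± 0.45 with a 95% interval from -6.04 to -4.09 (limma adjusted p = 2.90e-06). Of the tested genes, 370 had a larger fall. The exact two-sided permutation test over all splits of 5 against 5 gave p = 0.0079, the smallest it can give, for Dpt and likewise for Pi16, Dcn, Cxcl12, Lum and Postn.

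The bases before the Dpt start site are shown with those before the starts of Cxcl12 and Postn, to set the quiescent marker that fell furthest beside another quiescent marker and an activated one. RefSeq windows were matched by symbol for 5 of the 10 genes. Shown are the 250 bases upstream of each RefSeq start on GRCm38.p6, plus strand, 5′ to 3′, at chr1:164796413-164796662 for Dpt, chr6:117168285-117168534 for Cxcl12 and chr3:54359017-54359266 for Postn. The authors' build is not given in the sources used here. Capitals mark the E-box letters CANNTG and the GC box letters GGGCGG on either strand.
Dpt: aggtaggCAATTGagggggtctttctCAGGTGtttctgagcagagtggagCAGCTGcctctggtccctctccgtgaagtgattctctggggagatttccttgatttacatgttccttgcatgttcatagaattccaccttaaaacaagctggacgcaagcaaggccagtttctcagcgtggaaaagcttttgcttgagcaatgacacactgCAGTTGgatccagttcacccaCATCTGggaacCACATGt
Cxcl12: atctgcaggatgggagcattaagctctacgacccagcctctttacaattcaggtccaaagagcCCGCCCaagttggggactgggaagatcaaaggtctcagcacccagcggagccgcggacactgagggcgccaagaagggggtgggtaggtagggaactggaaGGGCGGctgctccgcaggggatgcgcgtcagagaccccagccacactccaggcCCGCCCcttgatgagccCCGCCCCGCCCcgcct
Postn: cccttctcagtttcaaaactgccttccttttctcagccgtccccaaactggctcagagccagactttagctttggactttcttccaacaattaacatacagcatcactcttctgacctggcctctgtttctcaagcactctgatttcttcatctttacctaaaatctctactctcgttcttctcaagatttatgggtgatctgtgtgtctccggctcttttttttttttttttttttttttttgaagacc
The Dpt window held 6 E-box matches and 0 GC boxes. The Cxcl12 window held 5 GC boxes, of which 1 pair overlapped by 1 base, and 0 E-boxes, while the Postn window held 0 of either. GC made up 48.8%, 64.4% and 40.4% of the 3 windows. Among 32851 promoter windows of the same length, 66.2% held an E-box and 32.7% a GC box. None of the 3 windows held a TATA box (TATAAA, in 12.4% of all windows), an AP-1 match (TGANTCA, 6.75%), a TEAD match (CATTCC, 12.6%), a SMAD match (CAGACA, 17.1%) or a CArG box (1.47%). The E-box and GC box were added after those 5 motifs gave no match, and a match or its absence describes these letters only.

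Pi16, a secreted peptidase inhibitor, marks the adventitial fibroblasts around vessels that are regarded as a reserve for other fibroblast states. Counts in ATM-KO libraries A11 to A15 were 44.5, 26.6, 17.6, 21.3 and 19.0, against 245, 61.0, 427, 70.4 and 75.2 in ATM-WT libraries A1 to A5. All knockout values were below the wild-type ones, though the wild-type libraries fell into a high pair, A1 and A3, and a low trio not far above the knockout range. The means were 25.8 ± 11 in ATM-KO and 176 ± 160.0 in ATM-WT. Its log2 fold change of -2.35 ± 0.54 (95% interval -3.51 to -1.18, limma adjusted p = 0.00321) rested on few reads, about 21.4 in A15 and 24.8 in A2 by the rough depth. Without the sparse libraries A2 and A4 it was -2.98 (limma adjusted p = 7.42e-04, range over its alternatives 7.42e-04 to 0.019).

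Decorin, encoded by Dcn, is a small leucine-rich proteoglycan that coats collagen fibrils and binds TGF-beta. Dcn stood at 1585, 734, 2539.8, 1497 and 2113 counts in A11 to A15 of ATM-KO, against 10109, 2758, 14780.3, 4819 and 3489 in ATM-WT libraries A1 to A5. The highest knockout library, A13, came close to the lowest wild-type one, A2, without overlap. Dcn averaged 1694 ± 682 in ATM-KO and 7191 ± 5126 in ATM-WT, a log2 fold change of -1.91 ± 0.45 (95% interval -2.88 to -0.93, limma adjusted p = 0.0038).

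Lum encodes lumican, a proteoglycan of the same family that regulates collagen fibril spacing, and is the next protein-coding gene to Dcn on mouse chromosome 10. Its counts were 1383, 661, 1560.3, 791 and 1348 in ATM-KO libraries A11 to A15, against 11651, 4255, 20215, 7159.8 and 3556 in ATM-WT libraries A1 to A5. The groups were again separate, with A5 the lowest wild-type library. Lum averaged 1149 ± 397 in ATM-KO and 9367 ± 6849.6 in ATM-WT, a log2 fold change of -2.81 ± 0.43 (95% interval -3.73 to -1.88, limma adjusted p = 1.74e-04). The log2 difference Dcn minus Lum within a library was 0.15 to 0.92 in ATM-KO and -0.63 to -0.03 in ATM-WT, so every knockout library lay above every wild-type one. Kera, the gene after Lum, which encodes keratocan of the cornea and connective tissue, was listed at 0 to 2.67 in ATM-KO and 28.5 to 245 in ATM-WT (limma adjusted p = 3.66e-05). Epyc, the gene after Kera, was too low to be tested.

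Cxcl12 encodes a chemokine of stromal cells that attracts leukocytes and stem cells through the receptor CXCR4 and is scavenged by ACKR3. Cxcl12 stood at 701, 293, 835, 689 and 918 counts in A11 to A15 of ATM-KO, against 4726, 1788, 7047, 2606 and 3653 in ATM-WT libraries A1 to A5. The groups did not overlap, and A12 stood apart below the other 4 knockout libraries. Cxcl12 averaged 687 ± 240.0 in ATM-KO and 3964 ± 2047 in ATM-WT, a log2 fold change of -2.47 ± 0.37 (95% interval -3.27 to -1.67, limma adjusted p = 1.49e-04). Among its receptor genes, Ackr3 rose, at 1340.5 ± 257 in ATM-KO and 566 ± 147 in ATM-WT (log2 fold change 1.27 ± 0.20, limma adjusted p = 2.46e-04). Cxcr4 was not called, at 462 ± 153 in ATM-KO and 557 ± 189 in ATM-WT (-0.28 ± 0.28, limma adjusted p = 0.451).

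The PDGF receptor genes changed less than the matrix genes in size, and the difference between genes was not tested. Pdgfra encodes the alpha receptor, carried by most fibroblasts and by few other stromal cells. Its counts were 798, 663, 985, 804 and 988 in ATM-KO libraries A11 to A15, against 2028, 847, 1992, 1139 and 1286 in ATM-WT libraries A1 to A5. The groups met at A2, which lay below 2 knockout libraries. Pdgfra averaged 848 ± 139 in ATM-KO and 1459 ± 528 in ATM-WT, a log2 fold change of -0.72 ± 0.23 (95% interval -1.21 to -0.23, limma adjusted p = 0.0196 and two-sided exact permutation p = 0.0317). The call was lost without ATM-KO library A12 (-0.63, limma adjusted p = 0.053, range over its alternatives 6.36e-04 to 0.053).

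Pdgfrb encodes the beta receptor, which fibroblasts share with pericytes of small vessels. Its counts were 3368, 2034, 3123, 2659 and 3114 in ATM-KO libraries A11 to A15, against 5104, 2516, 4518, 2793 and 3315 in ATM-WT libraries A1 to A5. Only A12 fell below the wild-type range. Pdgfrb averaged 2859.7 ± 528 in ATM-KO and 3649 ± 1118 in ATM-WT, and its log2 fold change of -0.32 ± 0.20 did not pass (95% interval -0.76 to 0.12, limma adjusted p = 0.213 and two-sided exact permutation p = 0.214). Without A2 and A4 it was called, at -0.59 (limma adjusted p = 0.018, range over its alternatives 0.018 to 0.44). On the list of pericyte and smooth muscle markers, 0 of 14 tested genes rose and 5 fell, among them the pericyte gene Rgs5 (-1.44 ± 0.14), Ndufa4l2 (-3.80 ± 0.53), Rgs4 (-2.69 ± 0.40) and the receptor gene Notch3 (-1.14 ± 0.19). The list summed to 3568 to 4961 normalized counts in ATM-KO and 6837 to 10511 in ATM-WT, with none of the 14 at 0 throughout a group, and its part in the Pdgfrb values was not tested.

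The 4 PDGF ligand genes went different ways. Pdgfd, a ligand of the beta receptor, fell to 21.4 ± 12.4 in ATM-KO, against 183 ± 97.2 in ATM-WT (log2 fold change -3.06 ± 0.49, limma adjusted p = 2.71e-04). Pdgfc, a ligand of the alpha receptor, rose to 2235 ± 143, against 1513 ± 401 in ATM-WT (0.60 ± 0.16, limma adjusted p = 0.0076). Pdgfa (0.16 ± 0.12) and Pdgfb (0.19 ± 0.19) were not called.

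**Figure D2:**
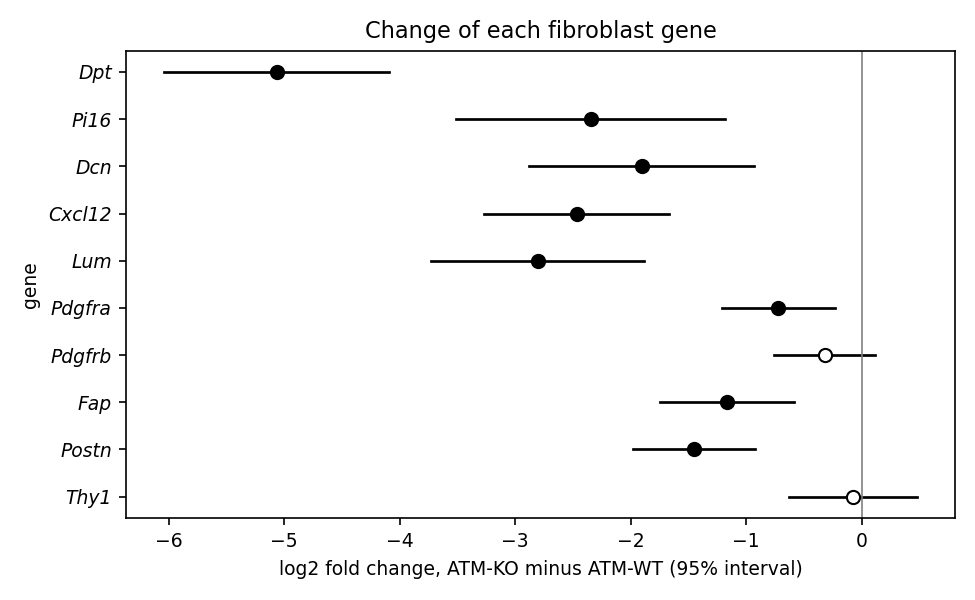
Log2 fold change of each fibroblast gene (ATM-KO minus ATM-WT, limma) with its 95% interval, filled where the adjusted p is under 0.05. Dpt lies at -5.07, and the intervals of Pdgfrb and Thy1 include 0.

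Fap encodes a surface serine protease of activated fibroblasts in tumours and wounds. Fap stood at 348, 248, 279, 281 and 380.1 counts in A11 to A15 of ATM-KO, against 736, 631, 1173, 783 and 343 in ATM-WT libraries A1 to A5. The knockout values were close together, and A5 alone of the wild type lay among them. Fap averaged 307 ± 54.6 in ATM-KO and 733 ± 299 in ATM-WT, a log2 fold change of -1.16 ± 0.27 (95% interval -1.74 to -0.59, limma adjusted p = 0.00321 and two-sided exact permutation p = 0.0238). Of 6 related peptidase genes, 3 rose and 1 fell. Dpp4, the closest relative of Fap and a marker of adventitial fibroblasts, rose to 120.4 ± 23.0 in ATM-KO, against 36.6 ± 19.3 in ATM-WT (log2 fold change 1.86 ± 0.41, limma adjusted p = 0.00232). Dpp9 (0.53 ± 0.10) and Prep (0.36 ± 0.11), both cytosolic peptidases, rose as well, and the lysosomal peptidase gene Dpp7 fell (-0.67 ± 0.24).

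Postn encodes periostin, a matricellular protein that binds integrins and collagen and is induced by TGF-beta. Counts were 20684, 9434, 17997, 18731 and 17427 in ATM-KO libraries A11 to A15, against 53214, 27224, 61554, 42517 and 46327 in ATM-WT libraries A1 to A5. Each knockout library was below each wild-type one, and A12 stood apart as the lowest. Postn averaged 16854 ± 4327 in ATM-KO and 46167 ± 12832 in ATM-WT, a log2 fold change of -1.45 ± 0.24 (95% interval -1.98 to -0.92, limma adjusted p = 3.71e-04). Among 9 relatives and partners of periostin, 4 rose and 2 fell. The collagen cross-linking enzyme gene Lox (-1.62 ± 0.28) and the matrix gene Ccdc80 (-1.83 ± 0.31) fell, while Itgb3, a subunit of a periostin-binding integrin (1.97 ± 0.18), and Bmp1, a protease that processes matrix precursors (0.96 ± 0.21), rose.

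Thy1 encodes a GPI-anchored surface protein of fibroblasts that mouse T cells and neurons also carry. Its counts were 1004, 623, 1353, 1073 and 1276 in ATM-KO libraries A11 to A15, against 829, 724, 1598, 1009 and 1545 in ATM-WT libraries A1 to A5. The ranges lay on top of each other, with A12 lowest in the knockout and A2 lowest in the wild type. Thy1 averaged 1066 ± 285 in ATM-KO and 1141 ± 406 in ATM-WT, and its log2 fold change of -0.07 ± 0.26 did not pass, and its sign turned without ATM-WT library A3 (0.07), ATM-WT library A5 (0.05) or ATM-KO library A12 (0.11). The 95% interval was -0.63 to 0.48 (limma adjusted p = 0.834 and two-sided exact permutation p = 0.81). The interval leaves room for a fall or a rise of less than 1 on the log2 scale. T cell markers summed to 1359 to 3637 normalized counts in ATM-KO and 635 to 2122 in ATM-WT over 20 genes, none at 0 throughout a group. Of those 20 genes, 2 rose, Themis (2.07 ± 0.41) and Cd4 (0.83 ± 0.32), and 0 fell, a count of 2 that became 9 after quantile normalization and 1 without any of ATM-WT A2, ATM-WT A4, ATM-KO A11 or ATM-KO A15. Neuron and Schwann cell markers summed to 6576 to 7692 in ATM-KO and 2585 to 4681 in ATM-WT over 13 genes, and 1 of the 9 tested rose and 3 fell. The gene that rose was the tubulin gene Tubb3 (2.18 ± 0.23), which tumour cells can also express. Tubb3 alone stood at 5098 ± 564 in ATM-KO, most of the summed counts there, and at 1193 ± 463 in ATM-WT. The genes that fell were Mbp (-1.23 ± 0.13), Snap25 (-4.87 ± 1.02) and Ngfr (-1.96 ± 0.76). The part of T cells or neurons in the Thy1 values was not tested.

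Quiescent markers fell further than activated ones in this set, as a description without a test. By gene, log2 fold changes were -5.07 (Dpt) to -1.91 (Dcn) for quiescent and -1.45 (Postn) to -0.07 (Thy1) for activated markers. Dpt and Thy1, at the 2 ends, weigh on the means that follow. Per library, the mean log2(value + 1) of Dpt, Pi16, Dcn and Cxcl12 minus that of Fap, Postn and Thy1 was -2.66, -3.01, -2.78, -3.07 and -3.05 in ATM-KO libraries A11 to A15. In ATM-WT libraries A1 to A5 it was -0.21, -1.49, -0.06, -1.29 and -1.27. The groups did not overlap on this difference, whose mean was -2.91 ± 0.18 in ATM-KO and -0.86 ± 0.67 in ATM-WT (SD, n = 5 each), -2.05 apart. The wild-type libraries again held a high pair, A1 and A3. The log2 value of Dpt minus that of Postn was -7.73 to -6.90 in ATM-KO and -4.40 to -2.52 in ATM-WT. Within the quiescent markers, Dpt minus Dcn was -4.50 to -3.19 in ATM-KO and -1.05 to -0.46 in ATM-WT. Within the activated markers, Fap minus Thy1 was -2.27 to -1.32 in ATM-KO and -2.17 to -0.17 in ATM-WT, where A5 alone fell in the knockout range. Pdgfra minus Pdgfrb was -2.08 to -1.62 in ATM-KO and -1.57 to -1.18 in ATM-WT, without overlap.

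**Figure D3:**
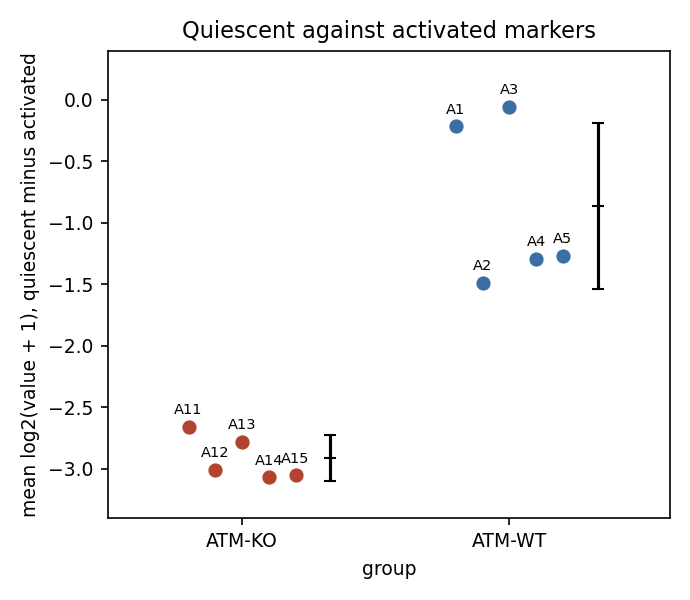
Mean log2(value + 1) of the quiescent markers minus that of the activated markers in each labelled library, with the group mean and SD beside the points. ATM-KO libraries lie between -3.07 and -2.66, all below the ATM-WT libraries, which lie between -1.49 and -0.06.

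Among tumours of one genotype, one library held the low end for most fibroblast genes, and in ATM-WT one held the high end. In ATM-KO, A12 was the lowest library for 9 of the 10 genes, where it was lowest for 24.2% of all tested genes, and the exception was Pi16, lowest in A13. The high end in ATM-KO was spread over A11 (4 genes), A13 (3) and A15 (3). In ATM-WT, A2 was lowest for 8 of the 10 (against 28.2% of all tested genes) and A3 highest for 8 (against 21.7%), with A1 highest for Pdgfra and Pdgfrb and A5 lowest for Lum and Fap. A12 and A2 also had the most genes at 0 in their groups, 3602 and 4824. The part of this sparseness in the low ends was not tested. The median SD of the 10 genes was 0.48 on the log2 scale in ATM-KO and 0.70 in ATM-WT, while for all tested genes it was 0.21 in ATM-KO and 0.39 in ATM-WT. Every one of the 10 varied more than that typical gene in both groups. The highest ATM-WT library held 7.02 times the Dpt count of the lowest, and 2.26 times for Postn. Epithelial marker sums among wild-type libraries were highest in A2 and A4 and lowest in A1 and A3, at 113758, 343886, 117514, 273379 and 195264 normalized counts in A1 to A5. A3 also had the highest sums among ATM-WT libraries for skeletal muscle markers (3745, against 261 to 383 in the other 4), lymphatic endothelial markers (4048, against 333 to 1864) and adipocyte markers (2847, against 1627 to 2071). The part of these cells in the spread was not tested.

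**Figure D4:**
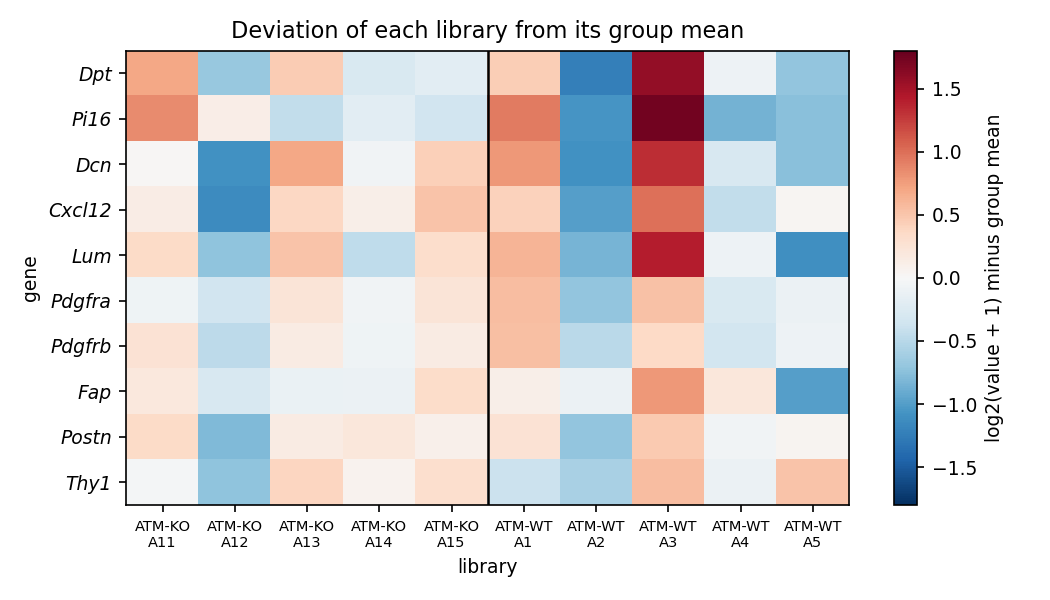
Deviation of log2(value + 1) from the mean of its own group for each fibroblast gene (rows) and library (columns), ATM-KO left of the line and ATM-WT right of it. A12 is below its group mean for all genes but Pi16, A2 is below for all 10 and A3 is above for all 10.

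Genes with the most similar profiles were sought among 13338 other genes with a mean of at least 50, by the root mean square difference of log2 values centred over the 10 libraries. For Dpt they were Hspb2 (0.44), Cryab (0.52) and Cacna1g (0.54). Those of Pi16 were Timp3 (0.40), Smoc2 (0.41) and Col14a1 (0.45), and those of Dcn were Fcrls (0.26), Ctsk (0.27) and Aqp1 (0.29). Lum was nearest to Itga10 (0.14), Itgbl1 (0.26) and Mmp2 (0.30), and Cxcl12 to Myl9 (0.21), Col3a1 (0.23) and Wnt10a (0.25). Pdgfra was nearest to Aebp1 (0.11), Mapk8ip1 (0.12) and Ppic (0.14). Pdgfrb was nearest to Acta2 (0.13), the actin gene of myofibroblasts and smooth muscle, then Cmtm3 (0.13) and Fstl1 (0.13). Among the genes nearest to Fap were Sfrp4 (0.30) and Mocs1 (0.30). Postn was nearest to Lrrc15 (0.16), a marker of myofibroblastic cells in tumours, then Tshz3 (0.16) and Lox (0.18). Thy1 was nearest to Ncf4 (0.17), Nbdy (0.25) and Mthfsl (0.26), none of them called. Libraries of both genotypes entered these distances, so they include the difference between the groups.

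Of 20 universal and adventitial fibroblast genes, 11 fell and 4 rose, with a median log2 fold change of -1.20. Scara5, a ferritin receptor and adventitial marker, fell to 7.65 ± 6.97 in ATM-KO, against 1259 ± 747 in ATM-WT (-7.34 ± 0.52). The guidance ligand gene Sema3c (-2.68 ± 0.19), the fibulin gene Fbln1 (-3.50 ± 0.25) and the enkephalin precursor gene Penk (-1.91 ± 0.29) fell too. Besides Ackr3 and Dpp4, Ly6c1 (1.43 ± 0.27) and Gsn (0.56 ± 0.19) rose, named here after their values were seen. Ly6c1 is carried by adventitial fibroblasts of the mouse and also by endothelial cells, and Gsn encodes the actin-severing protein gelsolin.

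Dcn and Lum belong to the small leucine-rich proteoglycans. Of 11 tested relatives, 10 fell and 0 rose, with a median log2 fold change of -1.81. Fibromodulin, encoded by Fmod, fell to 419 ± 186 in ATM-KO, against 5236 ± 3496 in ATM-WT (-3.53 ± 0.43). Biglycan, encoded by Bgn and the closest relative of decorin, fell to 2451 ± 875, against 12283 ± 5739 in ATM-WT (-2.29 ± 0.33), and asporin (Aspn) changed by -2.23 ± 0.33. Of 8 genes for partners of dermatopontin and decorin, 5 fell and 2 rose. The EGF receptor gene Egfr (-1.55 ± 0.15), which epithelial cells also express, and Tgfb3 (-1.07 ± 0.22) fell, while Tgfb1 rose to 5881 ± 549 in ATM-KO, against 2329 ± 717 in ATM-WT (1.39 ± 0.18, limma adjusted p = 6.30e-05).

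Of 30 myofibroblast and activated fibroblast genes, 14 fell, 6 rose and 10 were not called, with a median log2 fold change of -0.70. Falling genes included the WNT modulator Sfrp1 (-4.19 ± 0.41), the minor fibrillar collagen gene Col11a1 (-5.72 ± 0.61) and the collagen receptor gene Itga11 (-4.41 ± 0.57). Tgfb1, also on this list, was among the 6 that rose (1.39 ± 0.18). Acta2, the classic myofibroblast gene, did not pass, at 7295 ± 1379 in ATM-KO and 9253 ± 3347 in ATM-WT (-0.28 ± 0.24, limma adjusted p = 0.355). Among 6 fibrillar collagen genes 4 fell and 1 rose. Col3a1 (-2.51 ± 0.38), Col1a2 (-1.99 ± 0.45), Col5a2 (-1.30 ± 0.33) and Col1a1 (-1.54 ± 0.41, named after its value was seen) fell, and Col5a3 rose to 47749.7 ± 3753 in ATM-KO, against 5499 ± 1878 in ATM-WT (3.18 ± 0.20).

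Inflammatory fibroblast genes and fibroblast transcription factors gave no single direction. Of 15 inflammatory genes, 6 fell and 3 rose, and those that fell included the chemokine gene Cxcl14 (-3.98 ± 0.49), the prostaglandin synthase gene Ptgs2 (-2.13 ± 0.28) and the receptor gene Il1r1 (-1.04 ± 0.14). The 3 that rose, named after their values were seen, were the cytokine genes Il11 (3.99 ± 0.74) and Ccl2 (1.34 ± 0.31) and the hyaluronan synthase gene Has2 (0.64 ± 0.21). Of 17 tested transcription factor genes, 6 fell and 7 rose. Tbx18, a factor of the mesenchyme around the ureter and of pericytes, fell to 35.3 ± 5.61 in ATM-KO, against 317 ± 81.1 in ATM-WT (-3.10 ± 0.25), and Osr2 fell as well (-1.64 ± 0.21). Twist2, a factor of dermal fibroblasts and of mesenchymal transition, rose to 369 ± 60.5, against 148 ± 45.1 in ATM-WT (1.34 ± 0.22). En1, which marks a scar-forming lineage of dorsal skin fibroblasts in mice, rose to 235 ± 33.8 in ATM-KO, against 49.2 ± 23.9 in ATM-WT (2.42 ± 0.38).

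**Figure D5:**
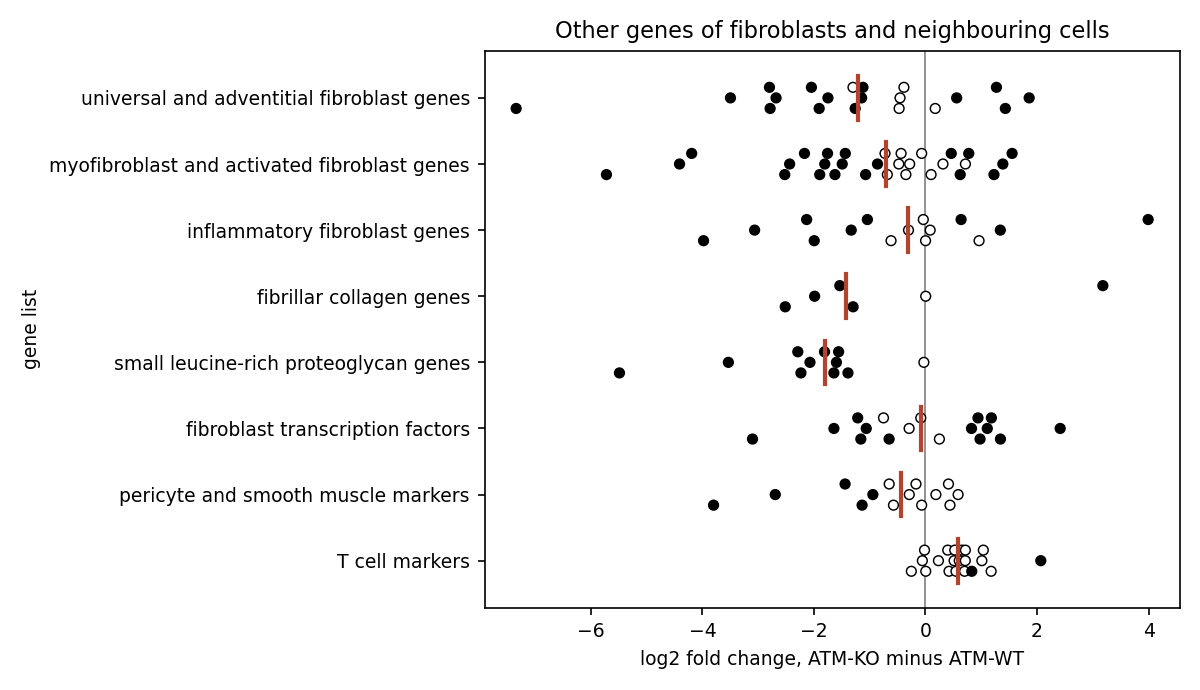
Log2 fold change (ATM-KO minus ATM-WT) of each tested gene on 8 lists, filled where limma's adjusted p is under 0.05, with a bar at the list's median. The proteoglycan list holds 10 filled points below 0 and none above, while T cell markers lie mostly above 0 with 2 filled points.

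Endothelial markers summed to 5396 to 8793 normalized counts in ATM-KO and 4914 to 8083 in ATM-WT, with 1 of 15 higher, Flt1 (1.07 ± 0.14), and 1 lower, Kdr (-1.07 ± 0.34), both receptors of VEGF. Macrophage markers summed to 45185 to 65549 in ATM-KO and 26187 to 73535 in ATM-WT, and Cd68, a lysosomal protein gene of macrophages, was called higher (0.60 ± 0.23). The 4 quiescent fibroblast markers summed to 1119.9 to 3538 in ATM-KO and 6141 to 33021 in ATM-WT, and the 3 activated ones to 10305 to 22035 in ATM-KO and 28579.8 to 64325 in ATM-WT. Of 6 lymphatic endothelial markers 0 were called in either direction at the adjusted threshold (sums of 487 to 4410.4 in ATM-KO and 333 to 4048 in ATM-WT). Of 7 adipocyte markers tested, 2 rose and 1 fell (sums of 1947 to 3120.1 in ATM-KO and 1627 to 2847 in ATM-WT). Of 14 skeletal muscle markers tested, 0 rose and 1 fell (sums of 117 to 2192 in ATM-KO and 261 to 3745 in ATM-WT).

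Mesothelial cells, which line body cavities, share several fibroblast and epithelial genes. Of 8 mesothelial markers, 0 rose and 6 fell, among them Krt19 (-9.74 ± 0.32), a keratin gene also on the epithelial list, and Bnc1 (-6.17 ± 0.48). Their sums were 557 to 1362 in ATM-KO and 12238 to 21972 in ATM-WT, and Upk3b had a value of 0 in all ATM-KO libraries. Of 10 skin and hair follicle markers tested, 1 rose and 5 fell (sums of 6309 to 7429.5 in ATM-KO and 5065 to 22605 in ATM-WT). The gene that rose, Scd1, stood at 5379 ± 416 in ATM-KO, most of the summed counts there, and at 1345 ± 460 in ATM-WT. Those that fell included Flg (-7.54 ± 0.64), Krt15 (-9.08 ± 0.88) and Krt1 (-8.26 ± 0.88). Skin is a tissue whose fibroblasts carry many of the quiescent markers. In ATM-WT libraries A1 to A5 the skin and hair follicle markers summed to 5065, 22605, 5667, 18095 and 8225. The highest, A2 and A4, also had the highest epithelial marker sums. The quiescent fibroblast markers summed to 19972, 6141, 33021, 10859 and 9408 in A1 to A5, highest in A1 and A3. The part of mesothelial or skin cells in the fibroblast values was not tested.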

How the data were processed

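RNA of 10 snap-frozen tumour pieces was sequenced. The submitters' processing notes name STAR, Salmon and DESeq2, with the genome build, annotation and versions not given in the sources used here. The values the authors deposited are normalized counts, a library-scaled signal per gene, in a single table. Its columns carry a genotype and a library number (A1 to A5, A11 to A15) but not the sample numbers of the labels, so they were used as replicates of a genotype without order. Among low values, 57.8 to 68.3% per library fell within 0.05 of a whole multiple of the value of 1 read, so reads were not recovered and depths are rough.

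The main test was limma 3.58.1 in R 4.3.3 on log2(value + 1), with a trended empirical Bayes step, for the 16517 genes with a mean of at least 10, adjusted by the Benjamini-Hochberg method. An exact permutation test over libraries stands beside it. Alternatives were pseudocounts of 0.5 and 5, other filters, quantile and upper-quartile scaling, other variance models, sample weights and leaving out each library. Leaving out A2 and A4 together was chosen after seeing the data. The 10 genes, the 22 other lists and the tests were chosen with earlier results of these data known. Genes named from a list are the up to 4 with the smallest p unless stated, and for each fibroblast gene the 3 nearest profiles. Some genes that this rule names are not reported here. Motifs were searched in RefSeq windows of GRCm38.p6 with Python 3.11.15.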

Additional observations from a re-analysis of the deposited data

Results flagged for a closer look

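Among 22 groups of 5 values examined for a value far from its neighbours, 2 stood out, where chance gives about 1 in 20. Cxcl12 in ATM-KO library A12, at 293 normalized counts, lay far below the other ATM-KO libraries. On the log2(value + 1) scale the gap was 0.748 of the group's range, against a critical value of 0.71. Postn in the same library, at 9434 normalized counts, likewise lay far below the other ATM-KO libraries (gap of 0.782 of the range on that log2 scale). Without A12 both genes kept their direction and their call in limma's test.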

How the results depend on the processing

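Of 603 alternative values over 31 results, 587 kept their direction and their side of the threshold or stayed within 1.5 times, and of 160 for the 8 called genes 159 did. Pdgfra lost its call without ATM-KO library A12 (-0.63), with -0.90 to -0.58 over single libraries left out, and Pdgfrb gained one without ATM-WT A2 and A4 (-0.59). Thy1 turned sign without ATM-WT A3 (0.07), ATM-WT A5 (0.05) and ATM-KO A12 (0.11), over a range of -0.22 to 0.11 with single libraries left out. The cause was not tested. Genes called lower among the 10 numbered 7 to 9. T cell markers called higher numbered 9 after quantile normalization, 1 with no filter, without the trend, with sample weights and without A2 and A4, and 1 to 3 with single libraries left out. Pericyte markers called higher numbered 1 after quantile normalization and 0 to 1 with single libraries left out. Under quantile normalization the median over all tested genes stood at a log2 fold change of 0.15, and Pi16 at -1.82 before that shift is taken off. The difference between quiescent and activated markers was -2.25 to -1.90 over 3 alternatives, a pseudocount of 5, quantile normalization and leaving out Pi16. It was not computed without Dpt, which fell most, or without Thy1, which fell least. No paired analysis was possible because the columns do not carry the sample numbers of the labels, so the replicate block was not run. With 5 libraries a group, differences as small as that of Pdgfrb could not be settled, and Pi16 rested on about 21.4 to 43.5 estimated reads in each ATM-KO library and 24.8 in A2 of ATM-WT.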
